A study of Homo sapiens with 3 samples.

Results

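The AP-1 and EGR immediate early factors are transcription factors that cells switch on within minutes of a growth signal or a stress. They were examined here in FaDu, an established squamous carcinoma line of the hypopharynx, through every probe set that names exactly 1 gene in the array's annotation, that gene being FOS, FOSB, FOSL1, FOSL2, JUN, JUNB, JUND, EGR1, EGR2 or EGR3. The rule found 33 probe sets of 49395 in the value table, and they covered 9 of the 10 genes. EGR2 had no such probe set and is not analysed here. The other 9 genes stand among 18132 genes named by a single-gene probe set. The study asked how NSC-631570, an extract of greater celandine (Chelidonium majus), alters gene expression in these cells. Treated cells had been kept for 48 h in medium with 10 µg/ml of the extract, a dose the submitters describe as half-maximally effective. Control cells had received the same volume of distilled water. Both groups are the same cell line in the same serum-containing medium, with no other agent or genetic change named. The RNA was measured on human PrimeView arrays, 2 for untreated cells (untreated 1 and untreated 2) and 1 for treated cells.

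In squamous and other epithelial cells, growth factors and stress act through MAP kinases on the genes of both families, and the resulting messages are short-lived. FOS and JUN proteins join through a leucine zipper to form AP-1, which binds the DNA sequence TGAGTCA and close variants. JUN proteins also pair with each other or with ATF proteins. FOSL1 and FOSL2 lack the strong activation domain of FOS and tend to follow it later and last longer. EGR proteins are zinc finger factors that bind GC-rich DNA and are held back by the corepressors NAB1 and NAB2. EGR1 and FOS are both classical targets of SRF, a factor that binds the CArG box, together with the ternary complex factors that ERK phosphorylates.

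The stretches directly before the transcription starts of EGR1, JUN and FOS are shown because these were the members with at least 4 probe sets in which every set was at least 1.5-fold below both untreated arrays. They are the 250 bases before the start in RefSeq's promoter table (GRCh38.p14), written 5′ to 3′ along the gene's own strand, with matches to the searched motifs in capitals. The EGR1 stretch is chr5:138465229-138465478 (plus strand), the JUN stretch chr1:58784048-58784297 (minus strand) and the FOS stretch chr14:75278578-75278827 (plus strand).
EGR1: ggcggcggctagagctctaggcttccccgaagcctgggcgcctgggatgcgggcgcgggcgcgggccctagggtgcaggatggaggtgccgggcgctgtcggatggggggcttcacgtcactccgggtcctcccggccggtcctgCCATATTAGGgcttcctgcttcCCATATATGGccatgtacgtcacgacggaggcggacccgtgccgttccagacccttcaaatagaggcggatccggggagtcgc
JUN: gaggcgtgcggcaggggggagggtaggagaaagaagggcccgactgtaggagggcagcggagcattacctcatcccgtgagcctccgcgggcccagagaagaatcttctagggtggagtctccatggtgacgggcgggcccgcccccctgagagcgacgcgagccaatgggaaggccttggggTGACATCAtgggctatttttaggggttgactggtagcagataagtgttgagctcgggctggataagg
FOS: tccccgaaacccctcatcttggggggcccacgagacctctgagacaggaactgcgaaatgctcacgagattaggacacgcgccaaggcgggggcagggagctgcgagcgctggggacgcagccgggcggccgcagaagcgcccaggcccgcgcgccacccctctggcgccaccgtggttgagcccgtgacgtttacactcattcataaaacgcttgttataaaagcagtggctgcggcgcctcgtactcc

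The capitals in EGR1 are a pair of CArG boxes, CCATATTAGG, which begins 105 bases before the start, and CCATATATGG, which begins 83 bases before it. A CArG box on either strand was held by 1.16% of the 35116 windows of this length in the table. The capitals in JUN are TGACATCA, a variant AP-1 site beginning 67 bases before the start, which 2.37% of all windows held on one strand or the other. That motif was added to the search after the sequences had been seen. The FOS stretch held none of the motifs searched. Bases farther before the start were not searched, so this says nothing about a CArG box of FOS there. A CArG box was also held by 1 of the 3 windows of EGR2, CCATATATGG, which begins 71 bases before that start. The JUND window on chromosome 19 held TGACGTCA, the site of CREB and of JUN-ATF pairs, which 1.65% of all windows held. The table had 10 windows for 8 of the genes, and none of the 10 held TGAGTCA (4.2% of all windows), GCGGGGGCG (4.72%) or GCGTGGGCG (0.72%), searched on both strands. A match describes letters in a window and was not tested as a site.

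Signals are deposited log2 values, so a difference of 1 is a 2-fold ratio. Each gene was represented by its brightest probe set, and 11932 genes passed a filter on low signal (a mean over the 3 arrays of at least 5.85). All 9 members with a probe set passed it, as did 30 of the 33 probe sets. The treated array was set against the untreated ones with limma, adjusted by the Benjamini-Hochberg method over all tested genes. The treated condition is a single culture on 1 array and is assumed to vary like the untreated arrays. The labels do not say that those came from separate cultures, and the spread behind the p-values may therefore be purely technical. A fold rule, which is no test, asked for a ratio of 1.5 or more to each untreated array, in the same direction. The median absolute gap between the untreated arrays was 0.18 and its 95th percentile 0.66. Over all tested genes the median difference from the untreated mean was 0.12, although the array medians over all probe sets were 6.62 and 6.57 untreated and 6.55 treated. Of the array controls, the 5′ set for ACTB was lower in the treated array by a factor of 2.59 (−1.37 on the log2 scale) and that for GAPDH by a factor of 1.39, while their 3′ control sets lay within 0.20 of the untreated mean. The part of this 5′ loss in the results was not tested. KRT5, EPCAM, CDH1 and SFN, which mark squamous and other epithelial cells, had signals of 11.77 to 13.96 on all arrays. The leukocyte marker PTPRC stood at 3.72 to 3.78, below the filter, as did LYZ. Of 6 fibroblast markers, LUM, DCN, COL1A2 and COL3A1 were below the filter, and COL1A1 (6.02, 6.02 and 6.08 in untreated 1, untreated 2 and treated cells) and PDGFRB (6.21, 6.10 and 6.20) just above it. Of 4 endothelial markers 3 passed it, CDH5 (7.54, 7.79 and 7.40), VWF (6.62, 6.54 and 6.63) and PECAM1 (6.60, 6.37 and 6.57), and neither list had a member past the 1.5-fold rule. Of 6 leukocyte markers 3 passed the filter, and all 3 lay above both controls, as 51.7% of tested genes did. CD14 read 7.03, 6.17 and 7.42, and CD3E read 6.04, 5.65 and 6.05. CD68, a lysosomal protein also made by other cells, was 1.5-fold above both controls (7.61, 8.55 and 9.53). Of the squamous markers KRT14 was (10.74, 10.35 and 11.49). Their part in the results was not tested.

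On the brightest probe sets, 8 of the 9 genes were below the untreated mean and 1, FOSL1, was above it. The 8 include EGR3 and JUNB, whose treated values lay between their controls. The median difference over the 9 was −0.60, beside 0.12 over all tested genes, most of which thus lay above their untreated mean. Their exact share is not given. EGR1, JUN, FOS and FOSL2 were at least 1.5-fold below both untreated arrays, where 1.23% of all tested genes were (147 of 11932). That background depends on the setting. It was 338 of 11932 genes when centred on the tested genes, with 5 members, and 318 of 10604 with the mean of probe sets, with 3 members. EGR1 was also 2-fold below both (0.235% of tested genes). No member was 1.5-fold above both, where 5.84% of tested genes were. Below both controls by any amount were 6 members, beside 22.5% of tested genes, and above both was 1, beside 51.7%. Of the 33 probe sets, 20 lay below both controls (33.3% of all single-gene probe sets did) and 7 above both (38.7%). By at least 1.5-fold, 16 lay below both (4.54%) and 0 above both (2.93%). The 16 all belong to EGR1, JUN, FOS and FOSL2, and probe sets of 1 gene measure the same message, so they are not independent. These shares are over all single-gene probe sets without the filter, which 30 of the 33 passed. In the test over genes 0 of the 9 members passed at an adjusted p of 0.05, and 8 of 11932 genes did (0.0670%). At an unadjusted p under 0.05 limma counted 5 members, EGR1, JUN, FOS, FOSL2 and JUND, all lower, beside 2.25% of all tested genes lower and 12.2% higher. Bulk RNA cannot tell fewer cells that carry a message from less of it per cell.

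**Figure D1:**
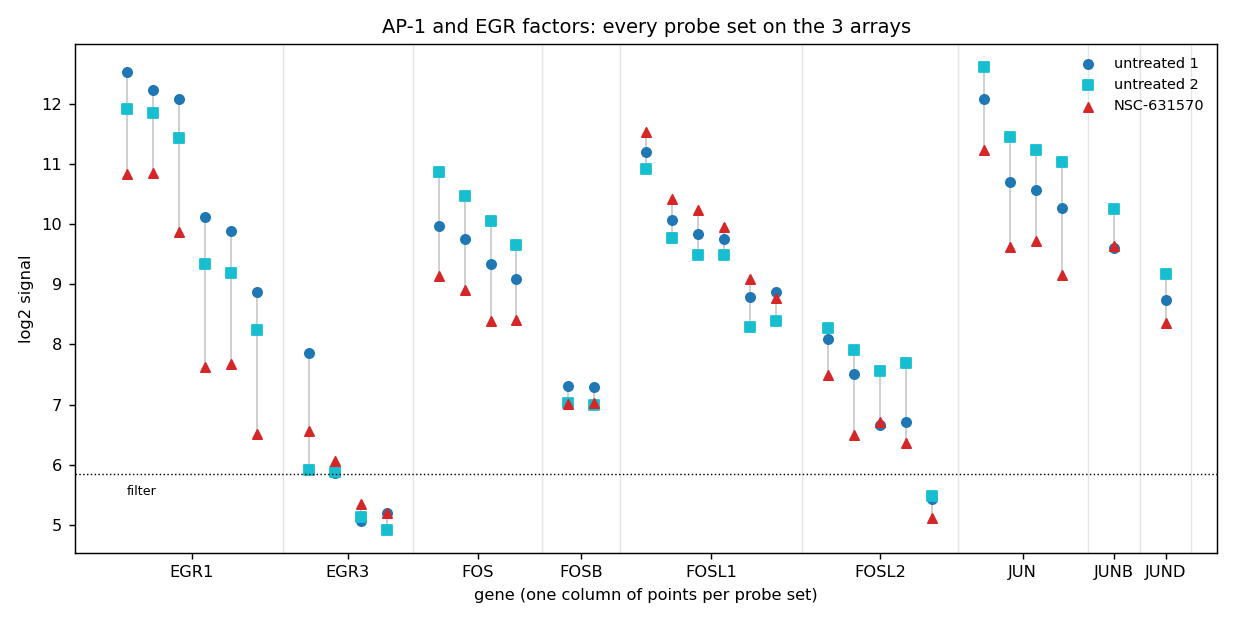
Log2 signal (vertical axis) of each of the 33 probe sets of the 9 genes, 1 column of points per probe set, with circles for untreated 1, squares for untreated 2 and triangles for the treated array; the dotted line is the filter at 5.85. The triangles are the lowest points in all 6 columns of EGR1 and all 4 columns each of FOS and JUN, and the highest in 5 of 6 columns of FOSL1.

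EGR1 had the largest difference of the family from the untreated mean and from untreated 1, while FOS and JUN lay farther below untreated 2. Its brightest probe set read 12.53 in untreated 1, 11.91 in untreated 2 and 10.84 in the treated array. Treated cells were thus 3.24-fold below untreated 1 and 2.10-fold below untreated 2, and the untreated arrays differed by 0.62 on the log2 scale, less than either distance. The difference from the untreated mean was −1.38 ± 0.29 (SE, limma, 2 untreated arrays against 1 treated), with an adjusted p of 0.123. EGR1 ranked 26 among 11932 tested genes by distance below the nearer untreated array. The adjusted p was 0.0475 when the arrays were centred on their probe set medians and 0.0468 when centred on the medians of the tested genes, and ranged up to 0.186 under the other settings.

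The other 5 EGR1 probe sets gave the same order of arrays, with untreated 1 the highest and the treated array the lowest. The second brightest read 12.22, 11.84 and 10.84 in untreated 1, untreated 2 and treated cells. The next read 12.08, 11.43 and 9.86. The 3 dimmer ones read 10.12, 9.34 and 7.63, then 9.88, 9.19 and 7.68, and last 8.87, 8.25 and 6.51. Against untreated 1 the probe sets differed by −1.38 to −2.49, and against untreated 2 by up to −1.73. In a limma fit over all 44994 single-gene probe sets, EGR1 fell on 3 of its 6 (adjusted p = 0.0364, 0.0463 and 0.0472), and these were the only 3 member probe sets past the threshold, beside 1.01% of all probe sets called lower. After quantile normalization of the arrays no member probe set passed, and the lowest adjusted p of EGR1 was 0.0593.

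EGR3, a relative of EGR1 with the same type of zinc fingers, had low and scattered signal. Its brightest probe set read 7.86 in untreated 1, 5.92 in untreated 2 and 6.56 in the treated array, so that the treated value lay between the controls. The untreated gap of 1.94 was matched or exceeded by 0.0754% of tested genes. The other 3 probe sets lay between 4.92 and 6.06 on all arrays, 2 of them below the filter, and differed from the untreated mean by 0.14 to 0.25. No direction can be read for EGR3.

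JUN, the partner that AP-1 dimers are built around, was lower on all 4 of its probe sets. The brightest read 12.08 in untreated 1, 12.61 in untreated 2 and 11.24 in the treated array, which is 1.79-fold below the first and 2.58-fold below the second. The next sets read 10.70, 11.44 and 9.63, then 10.57, 11.23 and 9.72, and 10.26, 11.03 and 9.16. In every set untreated 2 was the higher control, by 0.53 to 0.77, and the treated array lay below both. The difference on the brightest set was −1.11 ± 0.27 (SE, limma, 2 arrays against 1), with an adjusted p of 0.147 (0.0716 to 0.206 over the settings tried).

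FOS, the most transient subunit of AP-1, was likewise lowest in the treated array on all 4 probe sets. Its brightest set read 9.96 in untreated 1, 10.86 in untreated 2 and 9.14 in the treated array, 1.77-fold and 3.30-fold below them. The gap of 0.90 between the untreated arrays exceeded the distance of 0.82 from untreated 1 to the treated array, and 1.72% of tested genes had a gap that large. The remaining sets read 9.76, 10.46 and 8.90, then 9.34, 10.04 and 8.39, and 9.09, 9.66 and 8.40. The difference on the brightest set was −1.27 ± 0.35 (SE, limma, 2 arrays against 1; adjusted p = 0.175, and 0.0843 to 0.256 over the settings tried). EGR1 and FOS were thus ordered differently in the controls, EGR1 being higher in untreated 1 and FOS in untreated 2, and both were lowest in treated cells.

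FOSL2, a longer-lived FOS relative, was lower by less and less evenly. Its brightest set read 8.08, 8.28 and 7.50 in untreated 1, untreated 2 and treated cells, a difference of −0.68 ± 0.22 (SE, limma, 2 arrays against 1; adjusted p = 0.226). It was 1.5-fold below untreated 1, so it lay right at the edge of the fold rule, and it left the rule when the arrays were centred on their probe set medians and with the mean of its probe sets. A further set read 7.51, 7.90 and 6.50 and gave its lowest adjusted p of 0.0757. On 4 of the 5 sets the treated array was below both controls. On the set that read 6.67, 7.56 and 6.71 it was level with untreated 1.

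FOSL1, a FOS relative often linked to invasion in squamous carcinoma, was the only member with a positive difference. Its brightest set read 11.19 in untreated 1, 10.91 in untreated 2 and 11.53 in the treated array, 1.27-fold and 1.53-fold higher. The treated array was above both controls on 5 of 6 probe sets, and on the other, which read 8.87, 8.39 and 8.78, it lay between them. The difference of 0.48 ± 0.23 (SE, limma, 2 arrays against 1) did not pass (adjusted p = 0.399). In all, 16.6% of tested genes lay at least as far above the nearer control, so this distance is common in these arrays. Side by side, the differences from untreated 1 were 0.34 for FOSL1 and −0.82 for FOS, and from untreated 2 they were 0.62 and −1.72.

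For JUND the difference from the untreated mean exceeded the gap between controls (0.43), and for JUNB and FOSB it was smaller than their gaps (0.65 and 0.27). JUND, a JUN relative that most cells make steadily, read 8.74, 9.17 and 8.35 on its only probe set, below both controls (difference −0.60 ± 0.25, SE, limma, 2 arrays against 1, adjusted p = 0.326). JUNB, which can oppose JUN, read 9.61, 10.25 and 9.64, level with untreated 1 and 0.62 below untreated 2. FOSB read 7.30, 7.03 and 7.002 on its brighter set and 7.30, 6.99 and 7.03 on the other, level with untreated 2 on both. The single JUNB and JUND sets belong to a type (suffix _x_at) in which some probes may match other transcripts too. So do the EGR1 sets with an adjusted p of 0.0364 and 0.0472 in the limma fit over all single-gene probe sets. The JUN set that read 10.26, 11.03 and 9.16, the dimmer FOSB set and some FOSL1 sets are also of this type.

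**Figure D2:**
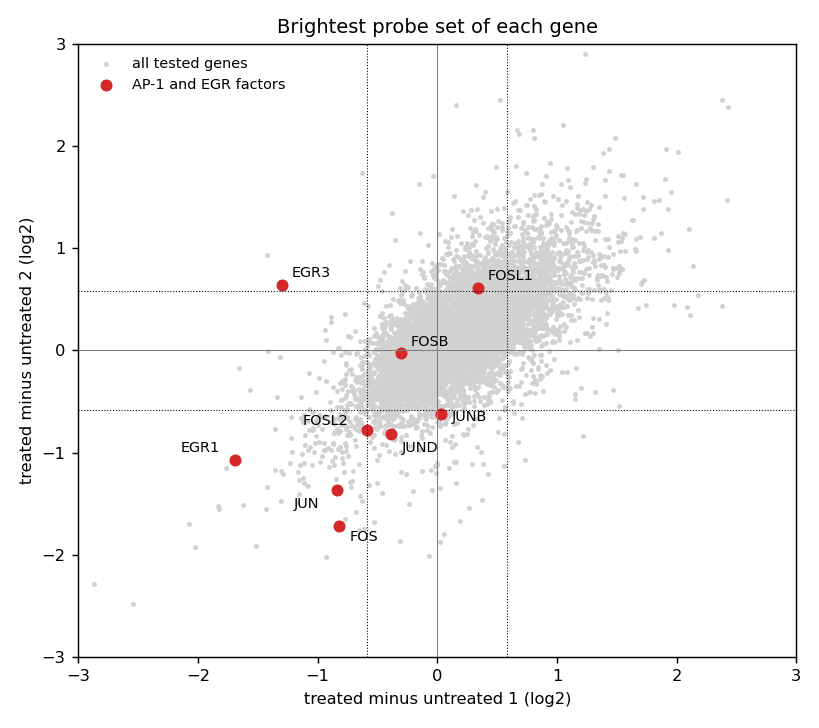
Log2 difference of the treated array from untreated 1 (horizontal) and from untreated 2 (vertical) for the brightest probe set of each tested gene (grey) and the 9 members (red); dotted lines mark 1.5-fold, and 2 genes lie outside the plotted range of 3 on each side. Both axes share the treated array. EGR1, JUN, FOS and FOSL2 lie in the lower left corner beyond the 1.5-fold lines, FOSL1 at 0.34 and 0.62, and EGR3 at −1.29 and 0.64.

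How evenly the probe sets of a gene differed was compared with other genes, a view chosen after the values had been seen. Of all genes, 2084 had at least 4 probe sets above the filter, and the log2 difference ranged over the probe sets of a gene by a median of 0.67. Every probe set was at least 1.5-fold below both controls in 8 of these 2084 genes (0.384%). They were EGR1, JUN and FOS, the AP-1 family factor ATF3, the stress-induced kinase gene PLK2, the 14-3-3 gene YWHAE, the pyruvate kinase gene PKM and PHAX, an adaptor for RNA export. Among members, 5 had that many probe sets, and EGR1, JUN and FOS were the 3 that met the rule. The range over the probe sets was 0.91 for EGR1, 0.38 for JUN and 0.33 for FOS. For FOSL2 it was 0.81 and for FOSL1 0.42.

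**Figure D3:**
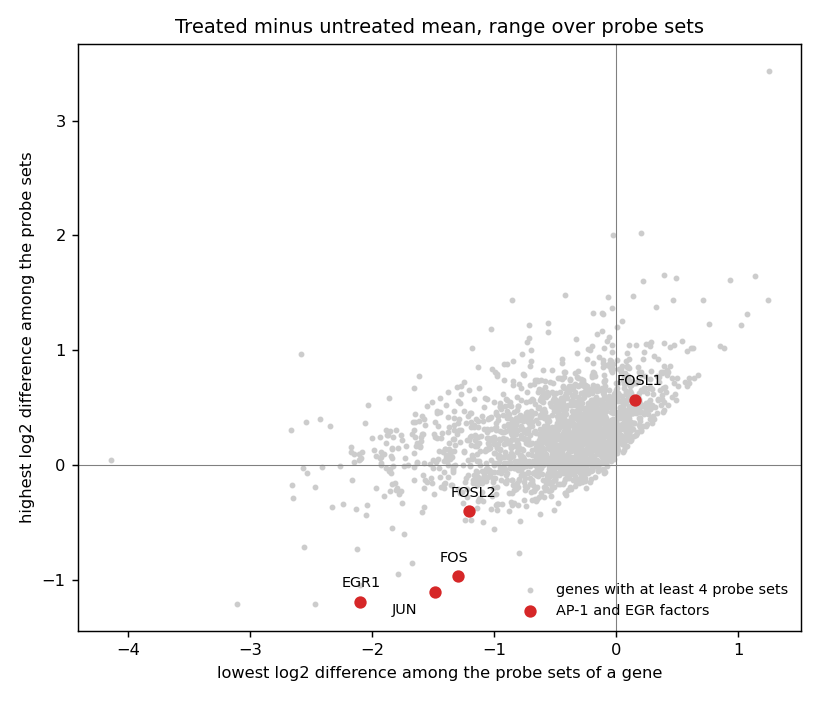
Lowest (horizontal) and highest (vertical) log2 difference of the treated array from the untreated mean among the probe sets of a gene, for 2084 genes with at least 4 probe sets above the filter (grey) and 5 members (red). The highest probe set is negative for EGR1, JUN, FOS and FOSL2, as for a number of grey genes, with EGR1, JUN and FOS at the lower edge of the plot, and FOSL1 lies right of the zero line.

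The 5 genes whose 3 signals, each centred on its untreated mean, lay closest to those of FOS (Euclidean distance over the 3 arrays, 0.06 to 0.22) were ATF3, ERRFI1, PLK2, CXCL2 and GADD45A. ATF3 is itself a partner of JUN proteins, ERRFI1 an inhibitor of the EGF receptor and CXCL2 a chemokine. ATF3 read 10.04, 10.93 and 9.27 in untreated 1, untreated 2 and treated cells, and ERRFI1 read 10.97, 11.87 and 10.29. All 5 were, like FOS, higher in untreated 2 than in untreated 1, an order fixed by their selection on these same 3 values. The 5 closest to EGR1 (0.07 to 0.38) were ZNF121, a zinc finger gene, RC3H2, which encodes an RNA-binding ubiquitin ligase, ASAH2B, the NF-kB subunit gene REL and USF1, a helix-loop-helix factor gene. ZNF121 read 7.73, 7.11 and 5.96, and all 5 were higher in untreated 1, which their selection fixed in the same way. None of these 10 genes passed limma (adjusted p between 0.0669 and 0.253).

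Among 26 other immediate early genes, 23 were tested. Of these, 12 lay below both controls and 3 above both, beside 22.5% and 51.7% of all tested genes. By at least 1.5-fold, 4 were below both (1.23% of all tested genes) and 0 above both (5.84%). The median difference was −0.19, beside 0.12 over all tested genes. It was −0.38 without untreated 1, −0.37 under a 60th percentile filter and −0.34 with the mean of probe sets. When centred on the tested genes it was also −0.38, beside −0.08 over all tested genes in that setting. The list median was smaller in size without untreated 2 (−0.13), when genes were left unfiltered (−0.13) and when the arrays were centred on their probe set medians (−0.14). CCN2, a matricellular growth factor gene, was the 1 gene that fell by limma (adjusted p = 0.0113, difference −2.51 ± 0.21, SE, 2 arrays against 1). IER2, a nuclear protein gene induced with FOS, read 11.06, 11.29 and 10.15 in untreated 1, untreated 2 and treated cells. CCN1, the sister of CCN2, read 12.09, 12.51 and 11.25. With ATF3 these are the 4 genes past the fold rule. MYC (11.83, 12.41 and 12.09) lay between its controls. So did IER3 (11.80, 12.67 and 12.41) and NR4A1 (9.19, 8.90 and 9.15). MYC, IER3 and NR4A1 were picked out after their values were seen.

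Of the other bZIP factor genes of the AP-1 family, 8 were tested. Above both controls lay 4 and below both 2, beside 51.7% and 22.5% of all tested genes. ATF3 was lower by the fold rule, beside 1.23% of all tested genes, and none passed limma (0.0670% of all tested genes did). The list median was 0.19. It was 0.01 without untreated 1, −0.0017 when centred on the tested genes, −0.01 without a filter and 0.03 under a 60th percentile filter. Without untreated 2 it was 0.20, and with a common median over all probe sets 0.24. BATF3, which pairs with JUN, read 6.56, 6.60 and 6.92. The small MAF gene MAFG read 10.55, 10.30 and 10.69. Taken over the mean of each gene's probe sets, the list median was −0.15.

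Genes for upstream regulators came next. Of all tested genes, 5.84% were higher and 1.23% lower by the fold rule, and 0.0670% passed limma. Counts of 0 in lists this short are near those shares. Of 7 genes for SRF, its ternary complex factors and cofactors, 5 lay above both controls and 0 below both, beside 51.7% and 22.5% of all tested genes. By the fold rule 0 passed. The median was 0.27 (0.07 with the mean of probe sets and 0.07 when centred on the tested genes). It was 0.38 without untreated 1 and 0.31 with a common median over all probe sets. SRF read 8.86, 8.52 and 9.30, and the ternary complex factor gene ELK1 read 9.01, 8.82 and 9.31. The other SRF probe set differed from the untreated mean by −0.34, and the 2 other ELK1 sets by a median of −0.13. Among 16 tested genes for MAP kinases and their activators 0 passed limma or the fold rule. Their median was 0.10, but −0.10 when the arrays were centred on the medians of the tested genes, −0.02 with the mean of probe sets and 0.19 without untreated 1. MAPK3 (ERK1) read 9.09, 9.46 and 9.30. Of 9 MAP kinase phosphatases 0 passed either rule. Their median was −0.08, but −0.35 without untreated 1, −0.04 without untreated 2 and −0.28 when centred on the tested genes. DUSP1, an immediate early phosphatase gene, was 0.07 below untreated 1 and 2.01 below untreated 2, at 9.76, 11.70 and 9.69. That set differed from the untreated mean by −1.04, and the 3 other DUSP1 sets by a median of −1.59. SRF, ELK1, MAPK3, DUSP1, BATF3 and MAFG are named as examples, chosen after their values were seen.

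The corepressors of EGR1 were higher than in both controls. NAB1 read 10.02, 9.93 and 10.52, and NAB2, which EGR1 itself induces, read 7.36, 7.90 and 8.22. Neither passed limma (adjusted p = 0.307 and 0.371) or the fold rule, and a place above both controls was held by 51.7% of tested genes. The 6 other NAB1 probe sets stood at a median of 0.11. WT1, a related zinc finger gene, read 8.41, 8.34 and 8.39. Among 5 tested genes for ubiquitin ligases that degrade AP-1 proteins, 0 passed either rule. Of all tested genes 0.0670% passed limma, and 5.84% were higher and 1.23% lower by the fold rule. The median of the 5 was 0.15, or −0.05 when centred on the tested genes, and FBXW7 read 8.47, 8.57 and 8.90.

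Genes that AP-1 is known to regulate in squamous cells stood on both sides. Of 17 tested, 3 were 1.5-fold above both controls and 1 below both, beside 5.84% and 1.23% of all tested genes, and none passed limma. The median was 0.34, but 0.13 without untreated 1, 0.14 when centred on the tested genes, 0.08 without a filter and 0.06 under a 60th percentile filter. It was higher without untreated 2 (0.45), with the mean of probe sets (0.45) and with a common median over all probe sets (0.38). Above were the integrin genes ITGA2 (7.87, 8.53 and 9.53) and ITGA5 (7.31, 8.04 and 8.72, the median difference of its 3 further sets being 0.24) and the collagenase gene MMP1 (10.26, 10.14 and 11.17). Below was the chemokine gene CXCL8 (12.48, 13.04 and 11.75). Of 12 tested EGR targets, NDRG1 (9.51, 9.11 and 10.75) and the cell cycle inhibitor gene CDKN1A (10.35, 10.37 and 11.15) were above both controls by the fold rule, and GADD45A (12.45, 13.30 and 11.82) was below both, beside 5.84% and 1.23% of all tested genes. The 5 other probe sets of NDRG1 stood at a median of −0.16. None of the 12 passed limma, and their median was 0.26. It was 0.11 without untreated 1, 0.06 when centred on the tested genes, and −0.13 over the mean of each gene's probe sets. Without untreated 2 it was 0.36, and with a common median over all probe sets 0.30.

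**Figure D4:**
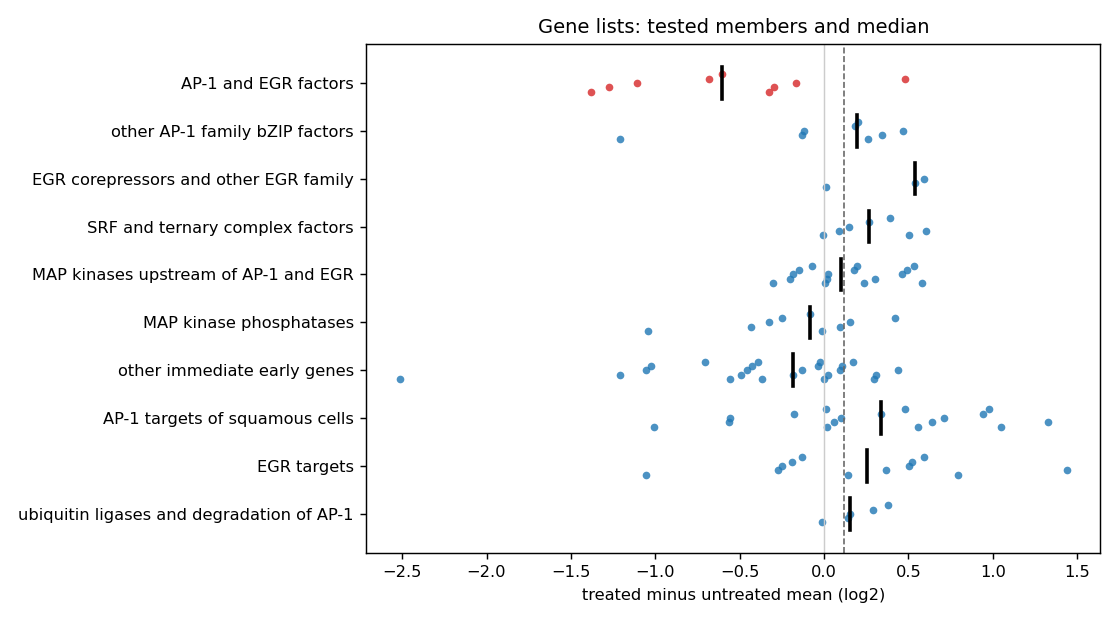
Log2 difference of the treated array from the untreated mean (horizontal) for each tested gene (points) of the AP-1 and EGR factors (red) and 9 related lists (blue), with black bars at the list medians and a dashed line at the median of all tested genes (0.12). The AP-1 and EGR factors have a median of −0.60 and the other immediate early genes one of −0.19.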

How the data were processed

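The authors deposited a log2 signal for each probe set on each array. Per the submitters' processing notes they used Affymetrix Expression Console, and neither algorithm, normalization nor version is given in the sources used here. Their range shows a log2 scale, and they entered every step as deposited. Probe sets were named through the platform annotation: 44994 named 1 gene, 1832 several and 2473 none here, and 102 are array controls. Genes were taken by their brightest probe set and kept above the 40th percentile of all probe sets (5.85). limma (version 3.58.1, R version 4.3.3) was fitted on all 3 arrays, with 1 residual degree of freedom and 6.95 prior ones. On simulated data of 11932 genes the fit recovered 12 of 50 genes changed by 1 on the log2 scale. It recovered 49 of 50 changed by 2, and 8 unchanged genes were called. A second fit took all single-gene probe sets without a filter.

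The members and lists were chosen with earlier results of these data known. Named beside the members are up to 4 genes of each list past the fold rule, the 5 genes nearest to EGR1 and to FOS, and genes marked as chosen later. Alternatives were other normalizations, filters, probe set summaries, prior variances and folds, and leaving out each untreated array. No detection call was made. Precision is limited by the number of arrays. No linear values were present, so no pseudocount was tried.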

Additional observations from a re-analysis of the deposited data

How the results depend on the processing

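EGR1, JUN and FOS stayed at least 1.5-fold below both controls under every normalization, filter, summary and prior tried, and the count of such members was 3 to 5 there, 6 without untreated replicate 1, 5 without untreated replicate 2 and 1 (EGR1) with a 2-fold rule. The count of members past limma was 1 (EGR1) with a common median over all probe sets or over the tested genes, and 0 in the other fits. Member probe sets past limma were 3 as deposited and 0 after quantile normalization. Over all genes, 8 passed limma (5 higher, 3 lower). The count was 4 after quantile normalization (3 higher, 1 lower), 136 with a common median over all probe sets (111 higher, 25 lower), 50 with one over the tested genes (21 higher, 29 lower), 4 without a filter (3 higher, 1 lower), 21 with the 60th percentile filter (12 higher, 9 lower), 3 with the mean of probe sets and 31 with an intensity trend. A common median over the tested genes moved the median difference of all tested genes from 0.12 to −0.08. The 1.5-fold rule counted 697 genes higher and 147 lower, 314 and 338 with that centring, 374 and 318 with the mean of probe sets, and 133 in all with a 2-fold rule. Over all genes it counted 1686 to 1715 with 1 untreated array left out, and among list genes 21 to 30, against 11 with both arrays and 2 at 2-fold. The cause was not tested, except that 1 control array is easier to pass than both. No paired analysis was possible, because there was 1 treated array and the sample labels name no pairing.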
